A study of Mus musculus with 21 samples.

Results

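The joins of cut Sμ DNA to the Sγ2b switch region were followed in CH12F3 cells. These mouse lymphoma B cells make IgM and turn to IgA under stimulation. A join counted as a γ2b join when its prey lay at chr12:114540500-114562999 (mm9), the γ2b unit, which holds the switch block Sγ2b at chr12:114547000-114552999. Position alone chose the joins, and 288 of 40530 junctions (0.711%) met the rule. They came from 14 of the 21 libraries, and 267 of the 288 (92.7%) came from a single genotype.

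Each library was made by CSR-HTGTS-Seq, which reads genomic DNA from a fixed starting point in 5′Sμ across the join. The Sμ side of a read is the bait, whose broken end varied between joins. The sequence to which that end was joined is the prey. All cells had the Sμ to Sα segment deleted from the non-coding IgH allele, so that the other allele alone could switch, and all were given TGF-β, IL4 and an antibody to CD40 for 72 h before DNA was taken. Iadel-i3CBEc (n = 3; genotype Ialpha-delta-i3CBEc in the labels) lacked Iα and carried 3 CTCF-binding elements (CBEs) inserted downstream of Cγ2a. Iadel (n = 6; I-alpha-delta) lacked Iα, from which germline transcripts through Sα start. i3CBEc-3CBEdel (n = 3; i3CBEc-3'CBEs-delta) carried the 3 inserted CBEs and lacked the 3′CBEs, the CTCF sites at the far end of the locus. i3CBEc (n = 3) carried the 3 CBEs, labelled as convergent, with Iα and the 3′CBEs in place. NCdel (n = 6; CH12F3NC-delta) had the non-coding allele deletion alone. The labels do not say whether the libraries of a group came from separate clones or cultures, so p-values measure only the spread between these libraries, which may be technical.

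In class switching, activation-induced cytidine deaminase (AID) acts on cytosines in transcribed switch regions, often at AGCT motifs, and the resulting breaks in Sμ and in a downstream switch region are joined. Each switch region is transcribed from its own I promoter, and joining of Sμ to Sγ2b deletes the DNA between them and places Cγ2b, which encodes the constant part of IgG2b, behind the rearranged variable exon. TGF-β is known to induce germline transcription of γ2b as well as of α in mouse B cells. CTCF-binding elements are known to halt cohesin-driven loop extrusion. The IgH genes lie on the minus strand of chromosome 12, with Sγ2b on the far side of Sγ3 and Sγ1 from the bait, between those and the inserted CBEs. A join in the normal, deletional orientation therefore has a minus-strand prey.

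The γ2b reads show how the ends met, and the joins below were chosen as extremes or as the ones nearest the median position. Each line runs 5′ to 3′ from Sμ into Sγ2b, with up to 40 bases of each side beyond any shared bases. Capitals mark bases that could belong to both sides (overlap, or microhomology) or that belong to neither (inserted). In a direct join they mark the last bait base and the first prey base. The first join had the longest overlap, 9 bases, with its prey at 114551353-114551393.
Iadel library 1, longest overlap: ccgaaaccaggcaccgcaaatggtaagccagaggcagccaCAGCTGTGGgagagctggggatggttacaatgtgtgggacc
The next had the longest insertion, 29 bases, with its prey at 114551107-114551146.
Iadel library 1, longest insertion: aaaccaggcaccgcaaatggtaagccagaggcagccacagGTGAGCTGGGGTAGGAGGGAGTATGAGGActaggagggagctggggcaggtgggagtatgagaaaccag
The direct join nearest the median position had its prey at 114550860-114550899, with neither overlap nor insertion.
Iadel library 5, direct join: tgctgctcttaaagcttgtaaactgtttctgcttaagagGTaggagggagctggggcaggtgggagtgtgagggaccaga
The inversional join nearest the median position had its prey on the plus strand at 114550911-114550953, with an overlap of 3 bases.
Iadel library 2, inversional join: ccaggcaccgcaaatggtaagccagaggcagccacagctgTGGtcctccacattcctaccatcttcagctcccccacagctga

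Before the shares, 3 properties of the libraries matter. The deposited table of Iadel library 4 held 4614 junctions, among them all 1760 reads of library 5 and all 1315 of library 6, which were removed and left 1539. The libraries differed by sequencing run as named in the reads. Run 490 held Iadel-i3CBEc libraries 1 to 3, Iadel libraries 4 to 6 and NCdel libraries 1 to 3, and no other run held more than 1 group. Among the 288 γ2b joins, 4 repeated the prey position, strand and bait end of another in the same library, and 6 did so between libraries, so that 278 were distinct. Libraries held 1180 to 3513 junctions.

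γ2b joins were rare in the starting line and frequent once Iα was gone. The share of all junctions in the γ2b unit was 1.49%, 1.77%, 1.10%, 2.34%, 2.78% and 2.66% in Iadel libraries 1 to 6, from 51, 62, 34, 36, 49 and 35 joins. It was 0.123%, 0.106%, 0.265%, 0.124%, 0.121% and 0.237% in NCdel libraries 1 to 6, from 2, 2, 5, 3, 2 and 5 joins. The lowest Iadel library stood above the highest NCdel library, so the groups did not overlap. The mean was 2.02% ± 0.677 in Iadel and 0.163% ± 0.0691 in NCdel (SD, n = 6 each), a difference of 1.86 percentage points and a 12.4-fold ratio. An exact two-sided permutation test over libraries gave p = 0.00216, the smallest that 6 against 6 allows, and a Benjamini-Hochberg adjusted p of 0.00541 over the 10 IgH regions. In this comparison 5 of the 10 regions (50.0%) were called at an adjusted p under 0.05, so a called region was common. Among them, γ3 rose 17.0-fold (7.675% in Iadel, 0.451% in NCdel). γ2a rose 39.9-fold (0.982% in Iadel, 0.0246% in NCdel, the latter from 3 joins). The rise was therefore not particular to γ2b, whose ratio was the lowest of these 3. At the mean NCdel share, the 14644 Iadel junctions would hold 23.8 γ2b joins, against the 267 observed.

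The share depends on what else is in the library. α joins, the main product in these cells, were 0.106% ± 0.129 of junctions in Iadel and 43.2% ± 7.24 in NCdel (SD, n = 6 each), so all other junctions had more of the total to fill in Iadel. The IgH window spans 20 kb above the bait and 250 kb below it. Junctions outside it were 67.4% ± 13.1 in Iadel and 37.8% ± 11.2 in NCdel (SD, n = 6 each). As a percent of junctions inside the window, α joins included, γ2b differed by 6.16 points (adjusted p = 0.00361, exact permutation). A count set against μ joins, which are ends joined within the donor region, leaves α joins out of the denominator. The μ share varied too, from 10.5% to 27.7% in Iadel libraries and from 12.6% to 21.7% in NCdel libraries. Iadel libraries held 8.68 to 16.8 γ2b joins per 100 μ joins (median 10.3), and NCdel libraries 0.559 to 2.07, again with no overlap. The difference in this measure was 10.3 joins per 100 (adjusted p = 0.00487, exact permutation).

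The 2 runs of Iadel stood apart. Libraries 4 to 6 had 2.60% ± 0.230 γ2b joins and libraries 1 to 3 had 1.45% ± 0.332 (SD, n = 3 each), with no overlap between them. Junctions outside the IgH window averaged 55.5% in libraries 4 to 6 and 79.4% in libraries 1 to 3, and μ joins 27.3% and 11.1% in the same order. Per 100 μ joins the order turned, with 9.51 ± 0.793 γ2b joins in libraries 4 to 6 and 13.1 ± 3.33 in libraries 1 to 3. Within run 490 alone, Iadel exceeded NCdel by 2.43 percentage points with no overlap, at an exact permutation p of 0.1, the smallest that 3 against 3 allows (adjusted p = 0.111). Iadel libraries 1 to 3, set against all 6 NCdel libraries, exceeded them by 1.29 percentage points (adjusted p = 0.0298, exact permutation), a split chosen after the values were seen.

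**Figure D1:**
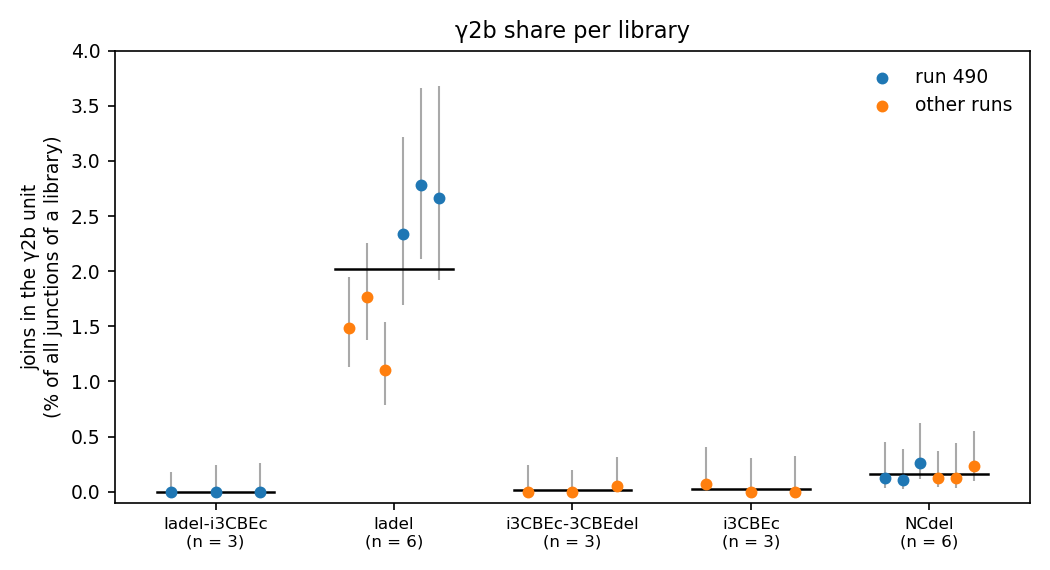
γ2b joins as a percent of all junctions of each library (y axis), by group (x axis). Points are libraries, coloured by sequencing run, grey bars are 95% Wilson intervals and black lines are group means. All 6 Iadel libraries lie at 1.10% or above, and no library of another group exceeds 0.265%.

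With the CBE insertion, γ2b joins were all but missing. No γ2b join was found among 2129, 1576 and 1447 junctions of Iadel-i3CBEc libraries 1 to 3. Over the 5152 junctions, 3 joins would be a share of 0.0582%, and the upper end of the 95% Wilson interval was 0.0745%. The Iadel libraries held 1.10% to 2.78%, with no overlap. The difference was -2.02 percentage points. The mean Iadel share was 34.7-fold the share that 3 joins would give in Iadel-i3CBEc. That ratio is not a lower bound, since the Wilson limit is higher and the spread of the Iadel libraries is left out. The exact permutation p was 0.0119, the smallest for 3 against 6, with an adjusted p of 0.0238. In this comparison 6 of 10 regions (60.0%) were called. Among them was γ3, with 0 joins in Iadel-i3CBEc against 987 in Iadel, so the loss was not particular to γ2b. At the mean Iadel share the Iadel-i3CBEc libraries would hold 104.2 γ2b joins. With Iadel-i3CBEc library 1, 2 or 3 or Iadel library 2 left out, the adjusted p was 0.0595 to 0.0714 and the difference -2.08 to -2.02. Within run 490 the difference was -2.60 (p = 0.1, exact permutation, the smallest possible there).

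Where Iα was kept, γ2b joins were rare with and without the insertion, and 1 was found in each insertion group. i3CBEc held 1 γ2b join, in library 1 (0.0719%), and none in libraries 2 and 3. Its mean was 0.0240% ± 0.0415 (SD, n = 3), against 0.163% ± 0.0691 in NCdel (SD, n = 6), without overlap. Over pooled junctions, 1 of 3828 in i3CBEc against 19 of 11564 in NCdel, the share was 6.29-fold lower. The exact 95% counting interval, 0.9998-fold to 261.3-fold, just included an equal share. The difference was -0.139 percentage points (p = 0.0119, exact permutation, adjusted p = 0.0397), and 3 of 10 regions (30.0%) were called. With 0.0119 as the smallest p, a region passed only where at least 3 regions of the comparison reached it. i3CBEc-3CBEdel held 1 γ2b join, in library 3 (0.0564%), and none in libraries 1 and 2. Its mean was 0.0188% ± 0.0326 (SD, n = 3), without overlap with NCdel (-0.144 points, p = 0.0119, exact permutation, adjusted p = 0.0397), with 3 of 10 regions (30.0%) called. Over pooled junctions its share, 1 of 5342, was 8.78-fold lower than in NCdel (exact 95% counting interval 1.40-fold to 364.7-fold). These calls rest on few joins. At the NCdel share, 6.23 joins would be found in i3CBEc and 8.70 in i3CBEc-3CBEdel, against 1 in each. With any library left out other than NCdel library 2, the i3CBEc call was lost (difference -0.163 to -0.118, exact permutation, adjusted p = 0.0595 to 0.179). The i3CBEc-3CBEdel call was lost with any library left out (difference -0.163 to -0.124, exact permutation, adjusted p = 0.0595 to 0.204). No i3CBEc or i3CBEc-3CBEdel library shared a run with NCdel, so the sequencing run and the genotype cannot be told apart in these 2 comparisons.

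Among the insertion groups, γ2b could not be ranked. Iadel-i3CBEc had 0 of 5152 γ2b joins and i3CBEc 1 of 3828, a difference of -0.0240 percentage points (p = 1, exact permutation). i3CBEc-3CBEdel had 1 of 5342, a difference of -0.00516 from i3CBEc (p = 1, exact permutation). A test of 3 against 3 libraries cannot go below 0.1, and 0 of 10 regions (0.0%) were called in either comparison. In i3CBEc the limit that 3 joins sets is 0.0784%, so a difference smaller than that was not detectable at this depth. Over the 3 groups 2 of 14322 junctions were γ2b joins, or 0.0140% (95% Wilson interval 0.00383% to 0.0509%). Intervals and limits here cover counting error only, since PCR copies of a molecule cannot be told from separate molecules without identifiers.

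The insertion effect on the γ2b share was -2.02 percentage points without Iα (Iadel-i3CBEc minus Iadel) and -0.139 with it (i3CBEc minus NCdel). The difference of the 2 effects was -1.88 points. A permutation test of the insertion labels within each background, over 7056 relabelings, gave p = 0.000142, the smallest they can give (adjusted p = 0.000472), and 6 of 10 regions (60.0%) were called. This is a difference on the additive scale, and γ2b could fall by at most its starting share in each background. That share was 2.02% in Iadel and 0.163% in NCdel, so the 2 effects could not have been equal. The test therefore adds little to the difference between Iadel and NCdel.

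Among the γ joins alone, γ2b was second to γ3 in Iadel. γ2b took 18.6% ± 2.63 of the joins to γ3, γ1, γ2b and γ2a in Iadel (267 of 1427 in all) and 22.7% ± 10.7 in NCdel (19 of 92; SD, n = 6 each). No test was made of this share. γ3 took the most, 987 joins in Iadel and 52 in NCdel. Iadel libraries held 0.207 to 0.343 γ2b joins for each γ3 join (median 0.260). In Iadel-i3CBEc 0 of 28 γ joins were γ2b (95% Wilson interval 0% to 12.1%) and 25 were γ2a, the γ unit nearest the insertion. Beside that, γ2b took 15.3% to 22.3% of the γ joins in the 6 Iadel libraries, and the 2 Iadel runs overlapped in this measure (17.7% ± 1.24 in libraries 4 to 6, 19.4% ± 3.69 in libraries 1 to 3; SD, n = 3 each). γ3 was likewise 0 of 28 in Iadel-i3CBEc. The high γ2a part there was no gain in γ2a joins. Of all junctions, γ2a took 0.480% in Iadel-i3CBEc and 0.982% in Iadel (adjusted p = 0.0510, exact permutation, not called).

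Within the unit, nearly all joins lay in the switch block. The block was drawn from 1-kb bins with at least 1000 prey bases read, so bins with few joins could not open or extend it, and this containment is partly set by how it was drawn. All 267 Iadel joins lay in Sγ2b, and none in the rest of the 22500-base unit, which allows up to 1.12% there. In NCdel 18 of 19 did, and the other lay at 114544659. For comparison, 977 of the 987 γ3 joins in Iadel lay in the Sγ3 block. The i3CBEc join lay in the block at 114551166, deletional with an overlap of 2 bases. The i3CBEc-3CBEdel join lay outside it at 114559882, on the μ side, deletional with an overlap of 3 bases.

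The Iadel joins gathered in the part of Sγ2b that faces Sμ. Their median position was 114550940 (quartiles 114549061 and 114551450), which is 2060 bases from the μ-side end of the block, and library medians lay 1871 to 2284 bases from it. The NCdel median, over 18 joins, was 114551039. The 1-kb bins starting at 114547000, 114548000, 114549000, 114550000, 114551000 and 114552000 held 8, 53, 20, 54, 121 and 11 joins in Iadel, and 3, 1, 1, 3, 8 and 2 in NCdel. The bin starting at 114551000 was thus the fullest in both, with 45.3% of the Iadel joins (95% Wilson interval 39.5% to 51.3%) and 44.4% of the NCdel joins (24.6% to 66.3%). The joins fell into 2 clusters with a gap between them. The 2.5 kb on the μ side held 185 Iadel joins (69.3%), the next 1 kb held 2 (0.749%) and the 2.5 kb towards Cγ2b held 80 (30.0%). Across Iadel libraries the μ-side part held 58.8% to 80.6%. The NCdel joins split 13, 0 and 5 over the same parts. These parts were drawn after the positions were seen. In the middle kb 322 base positions were covered by any prey read of the block, against 2097 on the μ side and 1834 on the Cγ2b side, and whether reads can be mapped there was not tested.

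**Figure D2:**
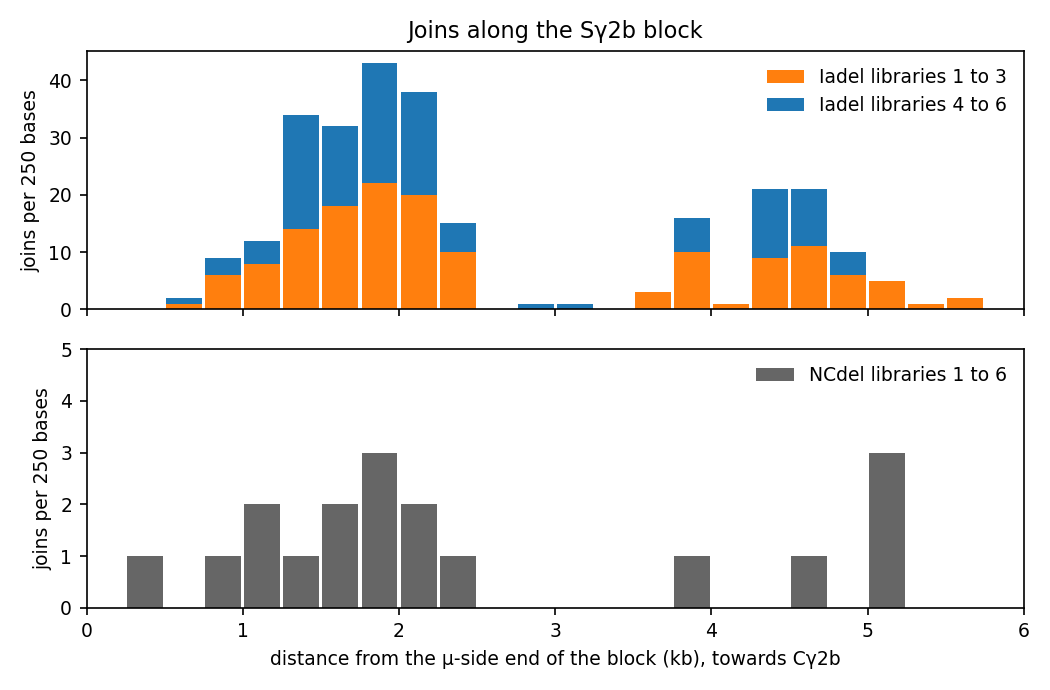
Joins per 250 bases of the Sγ2b block (y axis) against the distance in kb from its μ-side end (x axis), for Iadel (above, stacked by sequencing run) and NCdel (below, on another scale). Both Iadel runs show a large cluster before 2.5 kb and a smaller one beyond 3.5 kb. Between them lie 2 joins of libraries 4 to 6 and none of libraries 1 to 3.

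Few positions were used more than a single time. The 267 Iadel joins fell on 238 positions, of which 212 held 1 join, 23 held 2 and 3 held 3. γ3, with 987 joins on 734 positions, reached 7 joins at 1 position. The 3 most used γ2b positions, tied at 3 joins each, were 114550780, 114551049 and 114551481. Reads are shown for the 2 nearest Cγ2b, by a tie rule on library number and then position. At 114550780 the joins of libraries 2 and 3 were identical in bait end and sequence, and that of library 6 had another bait end and 2 inserted bases, so the prey end was reused with at least 2 bait ends.
Iadel library 2, position 114550780: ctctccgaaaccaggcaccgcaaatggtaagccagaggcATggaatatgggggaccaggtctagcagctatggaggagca
Iadel library 3, position 114550780: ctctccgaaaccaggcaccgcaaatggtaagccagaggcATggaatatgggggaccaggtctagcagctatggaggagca
Iadel library 6, position 114550780: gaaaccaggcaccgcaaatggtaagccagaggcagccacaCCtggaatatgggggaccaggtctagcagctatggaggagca
At 114551049 the 3 joins had 3 bait ends, 1 with a base of overlap and 2 with an inserted base.
Iadel library 2, position 114551049: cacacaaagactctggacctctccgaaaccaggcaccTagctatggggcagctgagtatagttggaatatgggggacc
Iadel library 4, position 114551049, overlap: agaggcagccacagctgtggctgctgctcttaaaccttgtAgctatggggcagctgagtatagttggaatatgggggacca
Iadel library 4, position 114551049, insertion: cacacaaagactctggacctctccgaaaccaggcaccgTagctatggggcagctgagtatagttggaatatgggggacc

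γ2b joins were almost all deletional, the orientation that yields a switched gene. In Iadel libraries 1 to 6, 98.0%, 91.9%, 97.1%, 100.0%, 98.0% and 100.0% of γ2b joins were deletional, and 259 of 267 in all (97.0%, 95% Wilson interval 94.2% to 98.5%). The 8 inversional joins lay between 114548836 and 114551593, and 5 of them came from library 2. In the same libraries the mean deletional share was 97.5% ± 2.97 for γ2b, 94.5% ± 2.12 for γ3 and 90.5% ± 2.02 for μ (SD, n = 6 each). γ2b was above γ3 in 5 of 6 libraries, by 3.00 points on average (adjusted p = 0.188, exact sign-flip permutation over libraries). γ2b was above μ in 6 of 6, by 6.99 points (p = 0.0313, the smallest that 6 libraries allow, adjusted p = 0.0938 over 6 such tests, exact sign-flip permutation). Neither difference passed the threshold after adjustment. In NCdel 16 of 19 γ2b joins were deletional (84.2%, 95% Wilson interval 62.4% to 94.5%), and the inversional ones came from libraries 1, 2 and 5, with 1 each. NCdel γ3 joins had a share of 80.8% and NCdel α joins 97.4%. With 2 to 5 γ2b joins in an NCdel library, no test between the genotypes was made.

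Microhomology, counted from 1 base of overlap, was the most common form of γ2b end, ahead of inserted bases and direct joins. Of the 267 Iadel joins, 149 (55.8%) overlapped by at least 1 base, 57 (21.3%) were direct and 61 (22.8%) had inserted bases. A single base was shared in 58 joins (21.7%), and 91 (34.1%) overlapped by 2 or more. How much overlap unrelated ends would share was not tested. The overlap of joins with microhomology had a median of 2 bases, 27 joins (10.1%) overlapped by 4 or more, and the longest overlap was the 9 bases shown above. By library, 44.9% to 68.6% of γ2b joins had microhomology (median 55.2%) and 15.7% to 28.6% had inserted bases (median 24.0%). γ3 joins in the same libraries were close in pooled value, with 57.2% microhomology, 22.3% direct and 20.5% inserted. μ joins had 49.6%, 17.5% and 32.8%. Paired by library, the microhomology share of γ2b differed from γ3 by -1.31 points ± 9.53 (SD, n = 6; adjusted p = 0.813, exact sign-flip permutation) and from μ by 6.42 ± 8.54 (adjusted p = 0.188, exact sign-flip permutation). The inserted-base share differed from γ3 by 2.29 points (adjusted p = 0.525, exact sign-flip permutation). Against μ it was lower in 6 of 6 libraries, by -10.2 points, at the smallest possible p of 0.0313 and an adjusted p of 0.0938 (exact sign-flip permutation). None of the 6 structure tests passed the threshold after adjustment. In NCdel 13 of 19 γ2b joins (68.4%) had microhomology, 5 were direct and 1 had an inserted base.

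**Figure D3:**
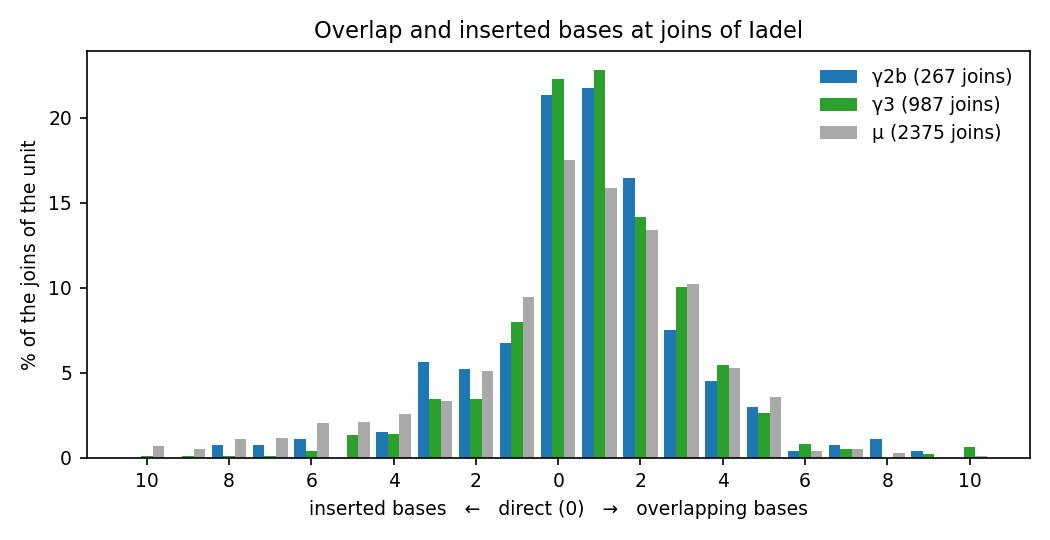
Percent of joins (y axis) by the number of inserted bases (left of 0) or overlapping bases (right of 0) on the x axis, for Iadel γ2b, γ3 and μ joins pooled over 6 libraries. Insertions longer than 10 bases are not drawn. γ2b and γ3 have similar shares of direct joins (21.3% and 22.3%), above that of μ (17.5%).

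Some longer insertions could be traced. The 29 inserted bases of the join shown above, at 114551146, matched γ3 reads without mismatch over all 29 bases, in 38 reads at 1 place, chr12:114601598-114601626 on the minus strand, within the Sγ3 block. The longest match in γ2b reads was 12 bases. A 20-base insertion in Iadel library 6, at 114552239, matched μ reads over all 20 bases, in 165 reads at 39 distinct places, of which 114663076-114663095 was covered by 48 reads. A 14-base insertion in the same library, at 114551044, matched no more than 10 bases in μ, 8 in γ3 and 7 in γ2b reads. Reads cover only parts of these regions, so a missing match says little about the insertion's source.

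The sequence of Sγ2b itself was read from the prey, over 4253 of the 6000 bases of the block (70.9%), and held 109 AGCT sites (2.56 per 100 bases). AGCT is its own reverse complement, so both strands were searched at once. The densest 100 bases, at chr12:114552026-114552125 and read on the minus strand in Iadel library 3, are shown with AGCT in capitals.
Sγ2b, densest AGCT stretch: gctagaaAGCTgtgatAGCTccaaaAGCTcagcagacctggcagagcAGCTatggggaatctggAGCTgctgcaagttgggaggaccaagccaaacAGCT
Breakpoints lay near AGCT more often than positions of the block at large. Of 253 deletional Iadel joins with known flanks, 62 (24.5%, 95% Wilson interval 19.6% to 30.2%) broke within 2 bases of the centre of an AGCT, against 520 of 4085 read positions (12.7%). Within 5 bases the shares were 41.1% of joins and 27.9% of positions, and within 10 bases 58.9% and 45.5%. In the fullest bin alone, starting at 114551000, 27.0% of joins (95% Wilson interval 19.7% to 35.7%) and 13.7% of positions lay within 2 bases. Within 5 bases they were 40.9% (32.3% to 50.0%) and 30.1%. Within 10 bases they were 57.4% (48.26% to 66.05%) and 49.7%, so there the interval held the value of the positions. These are descriptions with no test over libraries, since the sequence was itself built from the reads that begin at the breakpoints. Of the γ2b preys, 75.7% of deletional ones held an AGCT in their first 40 bases, against 81.6% of γ3 and 68.5% of γ2a preys in the same libraries.

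**Figure D4:**
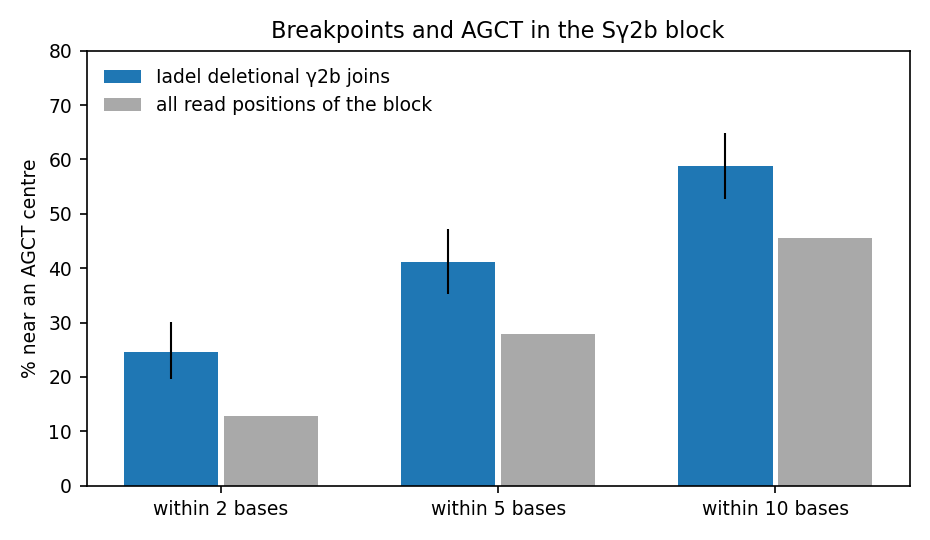
Percent within 2, 5 or 10 bases of an AGCT centre (x axis groups), for Iadel deletional γ2b breakpoints (blue, with 95% Wilson intervals) and for all read positions of the Sγ2b block (grey). The joins exceed the positions at each distance, by 24.5% against 12.7% at 2 bases.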

How the data were processed

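The authors deposited 1 junction table per library, with no normalisation. Positions are on mm9, mapped with Bowtie2 (no version) per the submitters' processing notes; filter settings are not given in the sources used here. Per the file headers, the overlap column counts bases between bait and prey alignments.

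Reads of libraries 5 and 6 were removed from Iadel library 4. Positions between the insertion and the bait were moved back by 99 bases in the libraries that carry it, a shift seen in 1319 of 1329 matched 40-base words. No mm9 genome was used: blocks are runs of 1-kb bins with at least 1 AGCT per 100 prey bases, named by gene order.

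Shares are percents of all junctions. Exact permutation tests over libraries were adjusted by Benjamini-Hochberg over 10 regions (scipy 1.17.1, pandas 2.3.3). They were tried on simulated independent libraries without a sequencing-run effect, so that check does not cover differences between runs. Named positions are all bins, prey positions with 3 or more Iadel joins in at least 2 libraries, and every γ2b join of the insertion groups. Sequences shown are from the deposited reads: extremes, joins nearest the median, and the joins at 2 of the 3 positions tied as most used (ties by library number, then position). The members and lists were chosen with earlier results of these data known.

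Alternatives changed the denominator, region borders, strand, scale, run, repeats and replicates.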

Additional observations from a re-analysis of the deposited data

Results flagged for a closer look

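In Iadel library 2, 91.9% of γ2b joins were deletional, below the 97.1% to 100.0% of the other 5 Iadel libraries. NCdel library 3 held 1.67 γ2b joins for each γ3 join, from 5 and 3 joins, above the 0.167 to 0.6 of the other 5 NCdel libraries. Of its 5 γ2b joins, 2 lay at the same position, 114547853, with the same overlap, and are among the repeats counted within libraries. In NCdel library 6, 20% of γ2b joins had inserted bases, which is 1 of 5 joins, and no other NCdel library had such a join. With the other 5 libraries all at 0%, any such join would have been flagged, so this flag carries no weight. Each of these 3 was the lowest or highest of its 6 libraries by Dixon's test, among 36 ends tested. Chance gives about 1 in 20 for a set of 6 libraries with both ends tested, not for each end. The effect of the CBE insertion on the γ2b share differed between backgrounds by -1.88 percentage points (-2.02 without Iα, -0.139 with it, p = 0.000142 by permutation within backgrounds, the smallest of 7056 relabelings). With a starting share of 0.163% in NCdel against 2.02% in Iadel, equal effects were not possible, so this adds little to the gap between those groups. i3CBEc and NCdel also shared no sequencing run.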

How the results depend on the processing

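Of 219 alternative values, 177 kept direction and side of the threshold, 35 lost the call or the difference, and 7 turned sign. The gain of Iadel over NCdel (1.71 to 2.04 points with a library left out) missed the threshold in run 490 alone (2.43, adjusted p = 0.111, exact permutation) and under the replicate block (1.86, 0.0781). For i3CBEc minus NCdel (-0.163 to -0.118 with a library left out) and i3CBEc-3CBEdel minus NCdel (-0.163 to -0.124), the call was lost per 100 μ joins (-0.916 and -0.959), without 10 kb around the bait (-0.169 and -0.174), for deletional joins alone (-0.136 and -0.146) and under the replicate block (-0.141 and -0.146). Iadel-i3CBEc minus Iadel (-2.21 to -1.87) lost it in run 490 (-2.60, adjusted p = 0.111, exact permutation), under the replicate block (-1.45, 0.278) and with Iadel libraries 1 to 3 only (-1.45, 0.111, chosen after seeing the data). The run and block settings use fewer libraries or pairs, and for the others the cause was not tested. The replicate numbers do not pair the samples: same-numbered Iadel and NCdel libraries correlated from -0.729 to 0.377, with 2 of 6 over 0.1 and 1 Iadel library closest to its own number. With a library left out, Iadel-i3CBEc minus i3CBEc ranged from -0.0360 to 0.0 and i3CBEc-3CBEdel minus i3CBEc from -0.0240 to 0.0188, where the sign turned without i3CBEc library 1 (0.0188) or without i3CBEc-3CBEdel library 1 or 2 (0.00424). With Iadel libraries 1 to 3 only, γ2b minus γ3 turned to 3.50 points for microhomology and -1.51 for inserted bases, and microhomology ranged from -4.10 to 1.06 with a library left out (1.06 without library 5, 0.418 without library 6). The difference of insertion effects kept its call in 27 of 27 alternatives (-2.07 to -1.73 with a library left out), all bounded in the same way by the starting shares. In run 490 alone it was not run, as the run lacks i3CBEc. Low γ2b counts in NCdel and the insertion groups limit what can be told there.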
